A study of Mus musculus with 9 samples.

Results

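Macrophages are tissue phagocytes, and the kidney holds a resident population of them between its tubules. Here 36 genes that mark macrophages and related leukocytes were followed in cultures of mouse primary renal tubular epithelial cells. They were found by gene name in a table of 31167 genes, and all 36 were present. Each of the 3 groups had 3 libraries, and all came from C57BL/6 kidney cells grown to about 50% confluence. Sham was the reference group. H/R cells spent 6 h in glucose-free medium under 1.0% O2, followed by 18 h of reoxygenation, as a model of ischemia and reperfusion. EGR1OV cells carried a plasmid that expresses the transcription factor Egr1 from the cytomegalovirus promoter, a promoter that is not specific to tubular cells, delivered with EndoFectin Max. The study's figure legend describes Sham as untreated and gives H/R and the plasmid as alternatives. Its methods describe transfecting primary tubular cells ahead of H/R, without naming these samples. Whether EGR1OV cells also went through H/R is therefore not settled, which bears on both EGR1OV comparisons. In EGR1OV against Sham the effects of Egr1, of the plasmid, of the reagent and of any H/R cannot be told apart. The labels do not name separate cultures or animals, so the p-values measure only the spread between these samples, which may be technical. Egr1 itself rose with the plasmid, from a Sham mean of 6.40 ± 0.443 FPKM to 42.6 ± 2.84 FPKM (SD, n = 3), and stood at 7.88 ± 0.599 FPKM after H/R.

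FPKM, the unit of all levels below, counts fragments per kilobase of exon at a common library depth, so levels can be compared between genes. Depth, as recovered from the values, ran from 16183624 to 18383937 reads. Of the 36 genes, 27 averaged at least 1 FPKM over all libraries.

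Macrophages are made and kept alive by signals through the receptor Csf1r, and the transcription factor PU.1 (gene Spi1) sets most of their gene program. They are known for making C1q, the first component of the classical complement pathway, for digesting what they engulf in lysosomes, for binding antibody-coated particles through Fc receptors, and for showing peptides to T cells on major histocompatibility complex (MHC) class II. Cells of the macrophage line can also be activated by microbial products and interferons, and some of their transcripts then rise while others fall. Several of these genes are also used by other leukocytes, and some, such as Cd14 and Cd68, by non-leukocytes.

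The tubular label was checked first. Tubule markers were abundant, with Pax8 at 13.1 ± 0.279 FPKM, Epcam at 76.2 and Krt8 at 1014 FPKM in Sham. Slc34a1 and Umod, which mark mature proximal tubule and thick ascending limb, were at 0.00434 and 0 FPKM. The defining macrophage markers were present beside them. The sum of C1qa, C1qb, C1qc, Csf1r, Adgre1, Lyz2, Tyrobp and Ptprc was 138 to 143 FPKM in the Sham libraries and 117 to 125 FPKM in the H/R libraries. In EGR1OV it was 19.1 to 23.3 FPKM, which is 14.7% of the Sham mean. Most of this sum came from Lyz2 (57.7 FPKM in Sham) and the 3 C1q genes (65.9 FPKM together), so the percentage mainly gives their fall. The sum of all 36 genes was at 38.6% of Sham. Without Lyz2 and the C1q genes it was at 62.7%, a sum in which Cd14 and Mpeg1 rose. Bulk RNA does not tell fewer cells of a type from less RNA per cell, and this holds for every fall described here.

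Promoter windows of the RefSeq annotation, from 250 bases before to 50 bases after each start site, were available for 27 of the 36 genes. They are shown for 6 genes that behaved differently: C1qc, Lyz2 and Mrc1, which fell to under 20% of Sham in EGR1OV, Ctss, which fell less, Fcgr1, which did not pass the test, and Mpeg1, which rose. Each is given 5′ to 3′ on the strand of its gene in GRCm38.p6. Capitals mark the letters GAGGAAG (a PU.1 motif), GAAA and again GAAA with 2 bases of any kind between (an interferon-stimulated response element, ISRE) or TTCNNNGAA (an interferon-gamma activated site, GAS), read on both strands. The windows are C1qc at chr4:136892865-136893164 (minus strand), Lyz2 at chr10:117282223-117282522 (minus), Mrc1 at chr2:14229164-14229463 (plus), Ctss at chr3:95526536-95526835 (plus), Fcgr1 at chr3:96293920-96294219 (minus) and Mpeg1 at chr19:12460520-12460819 (plus).
C1qc: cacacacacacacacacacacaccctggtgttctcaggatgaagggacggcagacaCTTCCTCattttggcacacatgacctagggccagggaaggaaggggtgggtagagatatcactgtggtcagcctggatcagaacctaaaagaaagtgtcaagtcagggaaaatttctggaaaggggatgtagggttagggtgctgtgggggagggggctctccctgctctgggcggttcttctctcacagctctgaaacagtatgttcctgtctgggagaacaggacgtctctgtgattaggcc
Lyz2: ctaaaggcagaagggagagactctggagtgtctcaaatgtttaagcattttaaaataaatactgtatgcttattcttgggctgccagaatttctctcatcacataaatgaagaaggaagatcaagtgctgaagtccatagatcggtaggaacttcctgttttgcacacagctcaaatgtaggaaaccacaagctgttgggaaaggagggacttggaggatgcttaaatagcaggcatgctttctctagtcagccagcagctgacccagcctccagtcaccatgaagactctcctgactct
Mrc1: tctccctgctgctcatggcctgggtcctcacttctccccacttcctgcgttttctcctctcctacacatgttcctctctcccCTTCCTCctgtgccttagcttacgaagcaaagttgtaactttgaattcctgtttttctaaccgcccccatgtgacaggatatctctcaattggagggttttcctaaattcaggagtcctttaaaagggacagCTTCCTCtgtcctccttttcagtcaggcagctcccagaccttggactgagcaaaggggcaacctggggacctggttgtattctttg
Ctss: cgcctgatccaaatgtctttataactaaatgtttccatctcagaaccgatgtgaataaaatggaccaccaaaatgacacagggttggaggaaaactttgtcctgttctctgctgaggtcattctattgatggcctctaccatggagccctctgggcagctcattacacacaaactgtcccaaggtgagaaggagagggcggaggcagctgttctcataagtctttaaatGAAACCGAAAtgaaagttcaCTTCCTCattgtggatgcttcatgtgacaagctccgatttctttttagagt
Fcgr1: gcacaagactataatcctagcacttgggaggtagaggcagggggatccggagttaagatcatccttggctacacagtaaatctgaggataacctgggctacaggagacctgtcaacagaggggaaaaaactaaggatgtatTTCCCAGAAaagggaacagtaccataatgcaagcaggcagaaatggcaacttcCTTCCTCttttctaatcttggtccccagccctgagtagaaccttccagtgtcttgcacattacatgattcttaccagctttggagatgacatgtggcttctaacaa
Mpeg1: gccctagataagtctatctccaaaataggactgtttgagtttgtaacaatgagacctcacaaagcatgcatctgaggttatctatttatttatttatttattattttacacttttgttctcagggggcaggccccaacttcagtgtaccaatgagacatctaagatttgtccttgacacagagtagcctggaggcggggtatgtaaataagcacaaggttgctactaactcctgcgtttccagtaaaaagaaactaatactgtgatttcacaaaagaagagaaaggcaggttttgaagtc

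The PU.1 letters were found in 9 of the 27 genes with a window (33.3%), against 15.4% of the 27025 genes with a window of the same length. The 9 genes were C1qc, Cd53, Ctss, Fcgr1, Fcgr3, Laptm5, Mrc1, Pld4 and Trem2, and Mrc1 held the letters at 2 places. Of the genes with a window that were lower in EGR1OV by the test below, 7 of 19 held them. The ISRE letters were found in Aif1, Ctss and Cybb (11.1%, against 3.99% of all genes). The GAS letters were found in Fcgr1 (3.7%, against 9.55%) and the NF-kB letters, GGG and TTTCC with 2 bases of any kind between, in Fcgr3 (3.7%, against 1.89%). The Egr1 letters GCGNGGGCG were in 0 of the 27 genes and in 6.27% of all genes. In Ctss the ISRE letters began 21 bases before the start site and the PU.1 letters 1 base before it, and the 2 did not overlap. These are matches of letters only, and no binding was measured.

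EGR1OV was set against Sham to see which macrophage transcripts fell together and which did not. Nearly all fell, but by very different factors, and 2 rose. Lyz2 and the C1q genes fell to 9.48% to 17.6% of Sham, Cx3cr1 to 4.17% and Mrc1 to 5.28%, Csf1r to 31.4%, Adgre1 to 50.7% and Cd74 to 66.3%, while Mpeg1 rose to 137% and Cd14 to 329%. After a filter of a mean of at least 0.5 FPKM, 32 genes were tested, and 26 were called lower and 2 higher (limma adjusted p under 0.05 over 13985 genes and a change of at least 1.3-fold). Of all genes tested, 6.51% were called lower and 9.87% higher. The median log2 change was -0.77 for the 32 genes and 0.02 for all genes. Log2 changes are on the log2(FPKM + 1) scale, which understates the change of low genes, whereas percentages of Sham are ratios of mean FPKM.

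**Figure D1:**
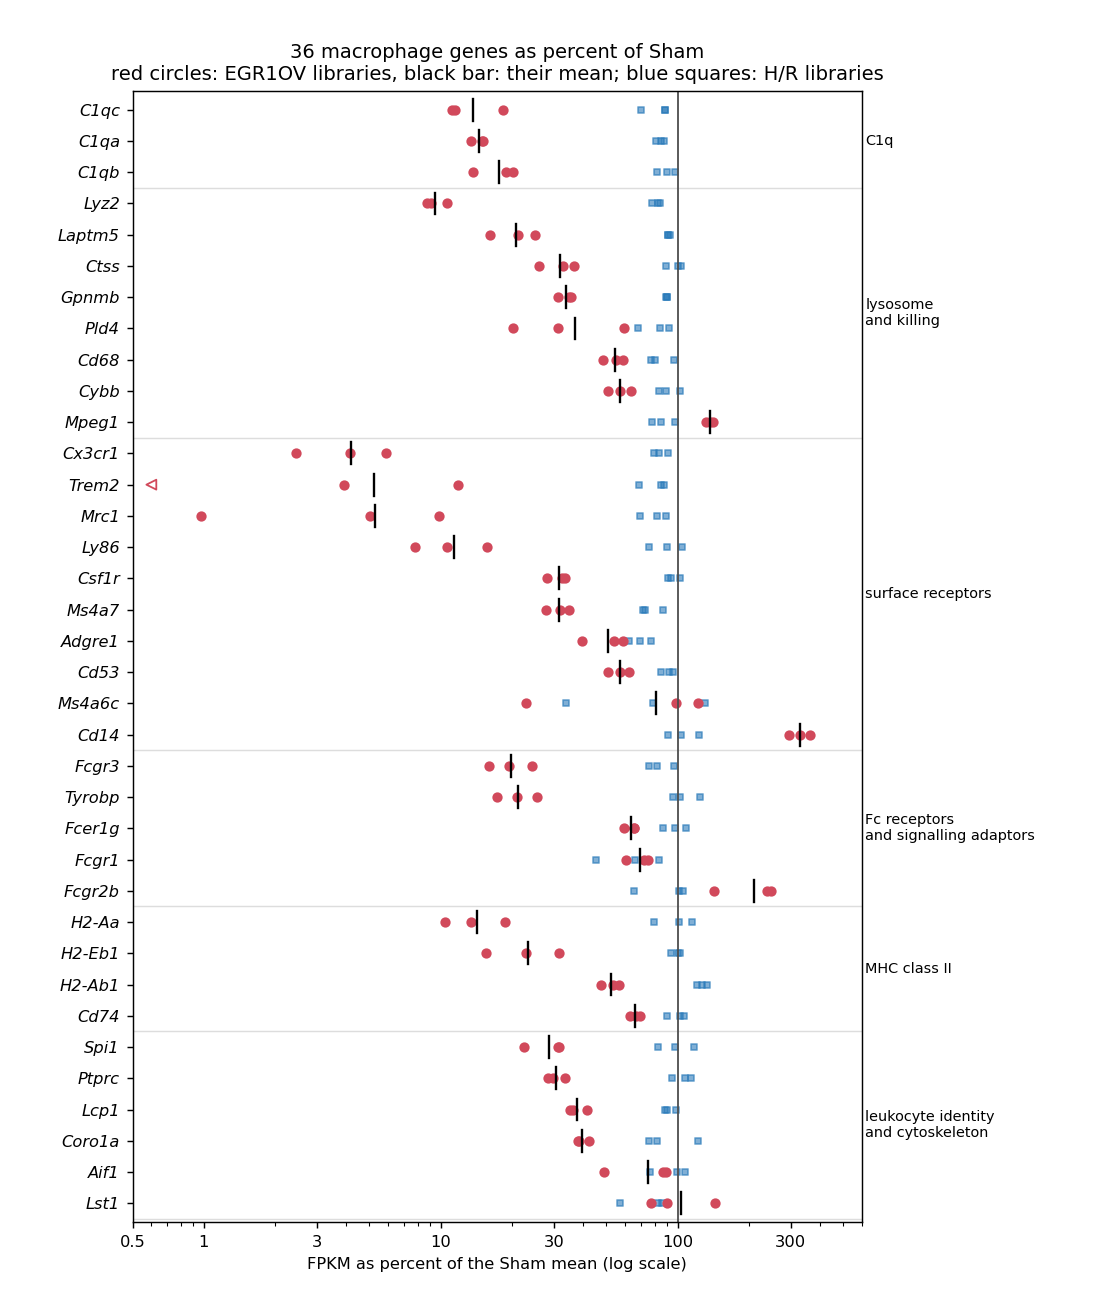
FPKM of the 36 genes as percent of the Sham mean on a log axis, grouped by role, with red circles for the EGR1OV libraries, a black bar for their mean and blue squares for the H/R libraries. The open triangle is a Trem2 value of 0. The EGR1OV means run from 4.17% (Cx3cr1) to 329% (Cd14), and the H/R means from 64.9% (Fcgr1) to 127% (H2-Ab1).

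By mean FPKM, 10 of the 36 genes were under 20% of Sham in EGR1OV, 12 were between 20% and 40%, 9 between 40% and 75%, and 5 above 75%. The 3 EGR1OV values lay below the 3 Sham values for 30 genes and above them for Cd14, Mpeg1 and Fcgr2b, and they overlapped for Fcgr1, Ms4a6c and Lst1. Among the 32 genes tested, 27 lay fully below and 2 fully above. Over all genes tested, 24.6% lay fully below and 31% fully above. With no filter on low values, Trem2 and Ly86 were called lower (adjusted p 0.000232 and 0.000134), while the changes of Ptprc (-0.36) and Fcgr2b (+0.22) were below 1.3-fold.

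C1qa, C1qb and C1qc encode the chains of a single complement molecule and lie side by side on chromosome 4, between 136880129 and 136898803. C1qa (ENSMUSG00000036887) was at 30.3, 32.5 and 30.5 FPKM across Sham, 26.6, 27.2 and 25.3 after H/R, and 4.63, 4.18 and 4.69 with the plasmid. C1qb (ENSMUSG00000036905) was at 20.5, 20.8 and 21.2 FPKM across Sham, 18.8, 20.3 and 17.1 after H/R, and 4.21, 3.94 and 2.84 with the plasmid. C1qc (ENSMUSG00000036896), whose promoter is printed above, was at 14.8, 13.6 and 13.6 FPKM across Sham, 12.4, 12.4 and 9.81 after H/R, and 2.56, 1.62 and 1.57 with the plasmid. Every EGR1OV library was below every other library for all 3 chains, and the H/R libraries lay below the Sham libraries without overlap. The log2 changes in EGR1OV were -2.55 (SE 0.047, adjusted p 2.43e-10) for C1qa, -2.24 (SE 0.10, adjusted p 1.77e-07) for C1qb and -2.38 (SE 0.13, adjusted p 4.91e-07) for C1qc. Between them the chains stood at 14.5%, 17.6% and 13.7% of Sham. Their sum was 65.9 ± 0.884 FPKM in Sham and 10.1 ± 1.19 in EGR1OV (SD, n = 3; exact two-sided permutation p 0.1, the smallest that 3 against 3 can give).

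The genes of the lysosome and of killing held both the largest fall of the 32 genes tested, on the log2(FPKM + 1) scale, and a rise. Of 8 genes, 7 were called lower and 1 higher. Lyz2 (ENSMUSG00000069516, chromosome 10 from 117277331 to 117282321), which encodes the bacteria-digesting enzyme lysozyme, was the most abundant of the 36 genes in Sham. It was at 55.8, 58.6 and 58.6 FPKM across Sham, 47.7, 44.8 and 48.8 after H/R, and 6.13, 5.02 and 5.24 with the plasmid. The change in EGR1OV was -3.19 (SE 0.061, adjusted p 2.74e-10), and by mean FPKM Sham was 10.6 times EGR1OV. The near-identical copy Lyz1 had no row under that name in the table, and reads shared between the copies could not be separated. Mpeg1 (ENSMUSG00000046805, chromosome 19 from 12460779 to 12465284), which encodes the pore-forming protein perforin-2, was at 13.3, 13.7 and 12.4 FPKM across Sham, 12.8, 11.2 and 10.3 after H/R, and 18.1, 17.3 and 18.5 with the plasmid. Its EGR1OV values lay above all the others. The change was +0.42 (SE 0.069, adjusted p 0.000852), and after quantile normalization it was +0.32, which is below the 1.3-fold threshold. Mpeg1 thus stood on the other side of Sham from Lyz2, although both were well expressed.

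The other 6 genes of this role lay between. Laptm5, a lysosomal membrane protein of blood cells, fell to 20.8% of Sham (4.78 ± 0.367 to 0.993 ± 0.213 FPKM, SD, n = 3). Ctss, the protease cathepsin S, fell to 31.8% (19.9 ± 0.967 to 6.31 ± 1.04 FPKM), and Gpnmb, a glycoprotein of lysosomes, to 33.9%. Pld4, a nuclease of the endolysosome, fell to 36.9%, with EGR1OV values from 0.206 to 0.609 FPKM. Cd68, a glycoprotein of endosomes and lysosomes, fell only to 54.2% (9.08 ± 0.562 to 4.92 ± 0.499 FPKM), and Cybb, the catalytic chain of the phagocyte NADPH oxidase, to 57.1%.

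**Figure D2:**
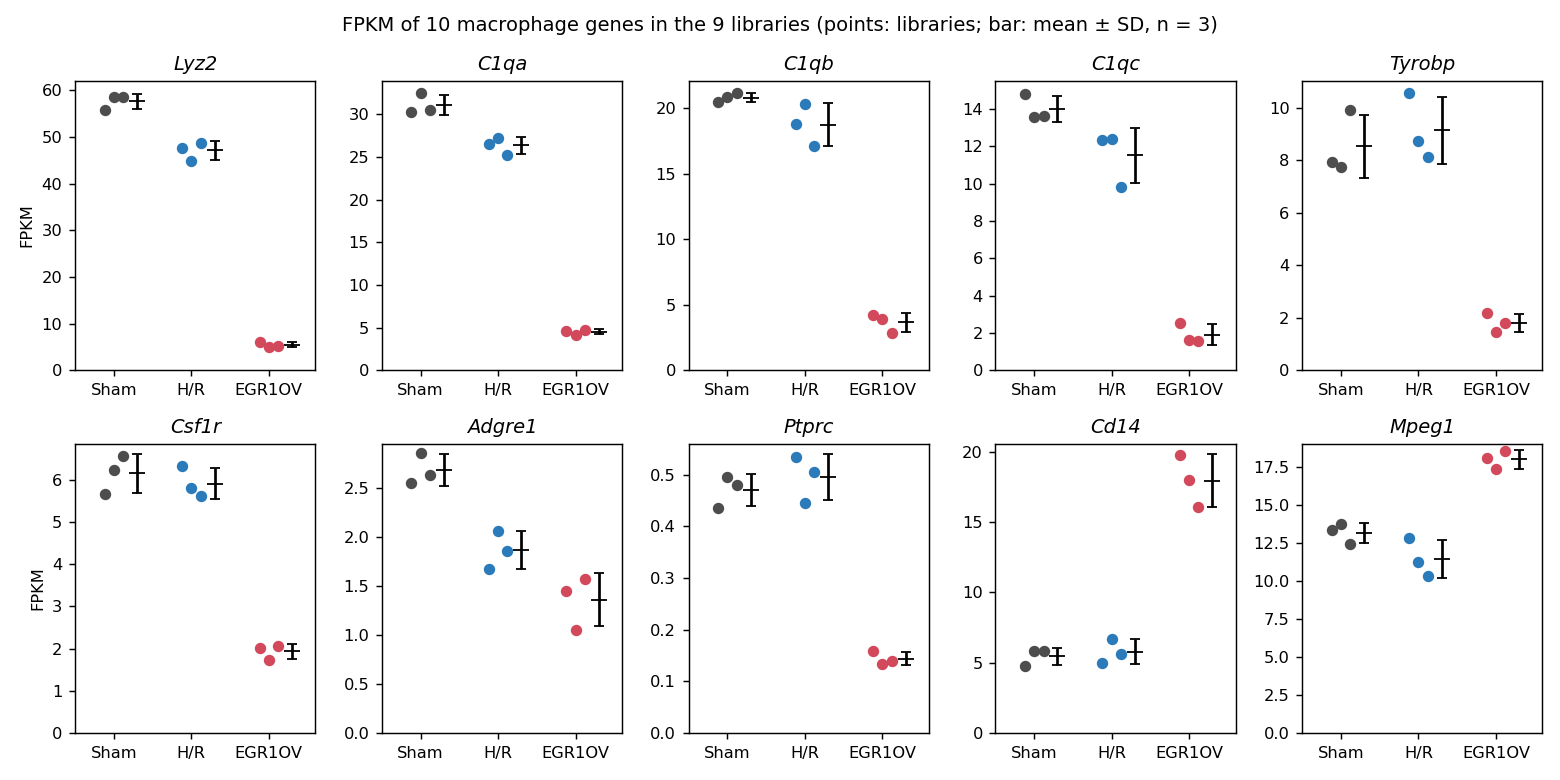
FPKM of 10 macrophage genes in each library, with points for libraries and a bar for the mean ± SD (n = 3) of each group; axes start at 0. The EGR1OV points are lowest for Lyz2, the 3 C1q genes, Tyrobp, Csf1r, Adgre1 and Ptprc and highest for Cd14 and Mpeg1.

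Among the 10 surface receptors, 8 passed the filter, of which 6 were called lower and 1 higher. Csf1r, the receptor for the growth factors Csf1 and Il34, was at 5.66, 6.23 and 6.57 FPKM across Sham, 6.32, 5.80 and 5.62 after H/R, and 2.01, 1.73 and 2.07 with the plasmid. All EGR1OV values were below the rest, with a change of -1.29 (SE 0.068, adjusted p 4.21e-07). Exons of Csf1r overlap those of the antisense gene Hmgxb3 over 873 of 5774 bases, Hmgxb3 was at 10.6 FPKM in Sham and 12.4 in EGR1OV, and the strand setting of the counting is not given in the sources used here. Adgre1, which encodes the macrophage surface protein F4/80, was at 2.55, 2.86 and 2.63 FPKM across Sham, 1.68, 2.06 and 1.86 after H/R, and 1.45, 1.06 and 1.57 with the plasmid. The 3 groups did not overlap, with EGR1OV lowest, and the change in EGR1OV was -0.65 (SE 0.092, adjusted p 0.000355).

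The 4 genes with the lowest FPKM in EGR1OV were also surface receptors. Cx3cr1, the fractalkine receptor, went from 1.61 ± 0.395 to 0.0672 ± 0.0278 FPKM (SD, n = 3), or 4.17% of Sham, and its EGR1OV values rest on 5, 7 and 3 reads. Mrc1, the mannose receptor with PU.1 letters at 2 places of its promoter window, went from 0.959 ± 0.0206 to 0.0506 ± 0.0427 FPKM (5.28%; 10, 5 and 1 reads). Both were called lower. Trem2, a lipid receptor that signals through Tyrobp, and Ly86, a partner of a Toll-like receptor relative on B cells and macrophages, did not pass the filter. Trem2 was at 0.617 ± 0.123 FPKM in Sham and 0.0324 ± 0.0372 in EGR1OV (6, 0 and 2 reads), and Ly86 at 0.633 ± 0.0560 and 0.0720 ± 0.0255 FPKM. Their EGR1OV values lay below all Sham values. Ms4a7, a membrane protein of macrophages, fell to 31.6% of Sham, and Cd53, a tetraspanin of leukocytes, to 56.9%. Ms4a6c, a relative of Ms4a7, was at 0.648 ± 0.136 and 0.527 ± 0.336 FPKM with overlapping groups and was not called (adjusted p 0.61). It shares 1088 of 2050 exon bases with an antisense gene, which was only at 0.0341 FPKM in Sham and 0.0688 in EGR1OV. Members of its family resemble each other.

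Cd14 was the exception in this role. It encodes the surface protein that hands bacterial lipopolysaccharide to Toll-like receptor 4. It was at 4.76, 5.80 and 5.82 FPKM across Sham, 4.95, 6.71 and 5.63 after H/R, and 19.8, 18.0 and 16.1 with the plasmid. The EGR1OV values lay far above the others, which overlapped. The change was +1.55 (SE 0.11, adjusted p 3.17e-06). With Cd14 included, the summed FPKM of the 10 receptors was 23.2 ± 1.06 in Sham and 24.2 ± 1.97 in EGR1OV (SD, n = 3), although 8 of the 10 had EGR1OV values fully below Sham.

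Of the 5 Fc receptors and signalling adaptors, 4 were tested and 3 were called lower. Tyrobp (ENSMUSG00000030579, chromosome 7 from 30413760 to 30417585), the adaptor also named DAP12, was at 7.93, 7.74 and 9.90 FPKM across Sham, 10.6, 8.73 and 8.11 after H/R, and 2.17, 1.47 and 1.78 with the plasmid. Sham and H/R overlapped and EGR1OV lay below both, with a change of -1.76 (SE 0.12, adjusted p 2.93e-06). Fcer1g, the signalling chain that Fc receptors share, fell less, to 63.4% of Sham (6.97 ± 0.792 to 4.42 ± 0.232 FPKM, SD, n = 3). Of the 3 immunoglobulin G receptors, only Fcgr3 was called, and the differences between them were not tested. Fcgr3, a low-affinity activating receptor, fell to 19.9% (5.30 ± 0.616 to 1.05 ± 0.220 FPKM). Fcgr1, the high-affinity receptor, was at 1.21 ± 0.360 and 0.837 ± 0.0923 FPKM with overlapping groups and was not called (adjusted p 0.151). Fcgr2b, the inhibitory receptor, did not pass the filter. Its values were 0.158, 0.168 and 0.209 FPKM in Sham and 0.426, 0.254 and 0.441 in EGR1OV, all higher in EGR1OV. Fcgr2b and Fcgr3 are similar in sequence, and how shared reads were assigned is not given in the sources used here.

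All 4 MHC class II genes were called lower, and they divided by size. H2-Aa fell to 14.2% of Sham (1.89 ± 0.218 to 0.268 ± 0.0797 FPKM, SD, n = 3) and H2-Eb1 to 23.3% (3.28 ± 0.811 to 0.765 ± 0.263 FPKM). These encode an alpha and a beta chain. H2-Ab1, which encodes the beta chain that pairs with the product of H2-Aa, fell to 52.5% (4.42 ± 0.602 to 2.32 ± 0.201 FPKM). Cd74, the invariant chain that guides the class II molecule, fell to 66.3% (12.3 ± 1.65 to 8.17 ± 0.369 FPKM). Their log2 changes ran from -1.27 to -0.53. Class II genes resemble each other, so their split of reads is uncertain.

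Of the 6 genes of leukocyte identity and cytoskeleton, 5 were tested and 3 were called lower. Ptprc, which encodes the leukocyte surface phosphatase CD45, did not pass the filter. It was at 0.435, 0.495 and 0.480 FPKM across Sham, 0.533, 0.446 and 0.505 after H/R, and 0.158, 0.134 and 0.140 with the plasmid. The EGR1OV values were all below the rest, at 30.6% of Sham, and rest on 40 to 48 reads over 18313 exon bases. Spi1 fell to 28.5% (1.41 ± 0.236 to 0.402 ± 0.0728 FPKM, SD, n = 3). Lcp1 and Coro1a, which bind actin in leukocytes, fell to 37.6% and 39.5%. Aif1, the calcium-binding protein IBA1, was at 2.14 ± 0.225 FPKM in Sham and 1.60 ± 0.483 in EGR1OV, and Lst1, a leukocyte transcript, was at 104% of Sham. Neither was called (adjusted p 0.131 and 0.952). Lst1 values rest on 8 to 19 reads per library.

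To ask which genes fell by the same factor as the C1q genes, each gene was compared with the mean of C1qa, C1qb and C1qc in the same library, on the log2(FPKM + 0.1) scale. Of 29 other genes tested, 25 fell less than C1q or rose, 2 fell further and 2 did not pass the test. Of all genes tested, 99.1% lay above C1q and 0.0286% below it, so a value above C1q is the usual case and does not set these genes apart. Lyz2 fell further than C1q by 0.68 (95% interval -0.93 to -0.43, adjusted p 2.53e-05). Mrc1 did not pass the test (difference -0.15, interval -0.91 to 0.60), nor did H2-Aa (difference 0.25, interval -0.21 to 0.71). These intervals leave room for sizeable differences, and the test does not show that these genes moved with C1q.

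**Figure D3:**
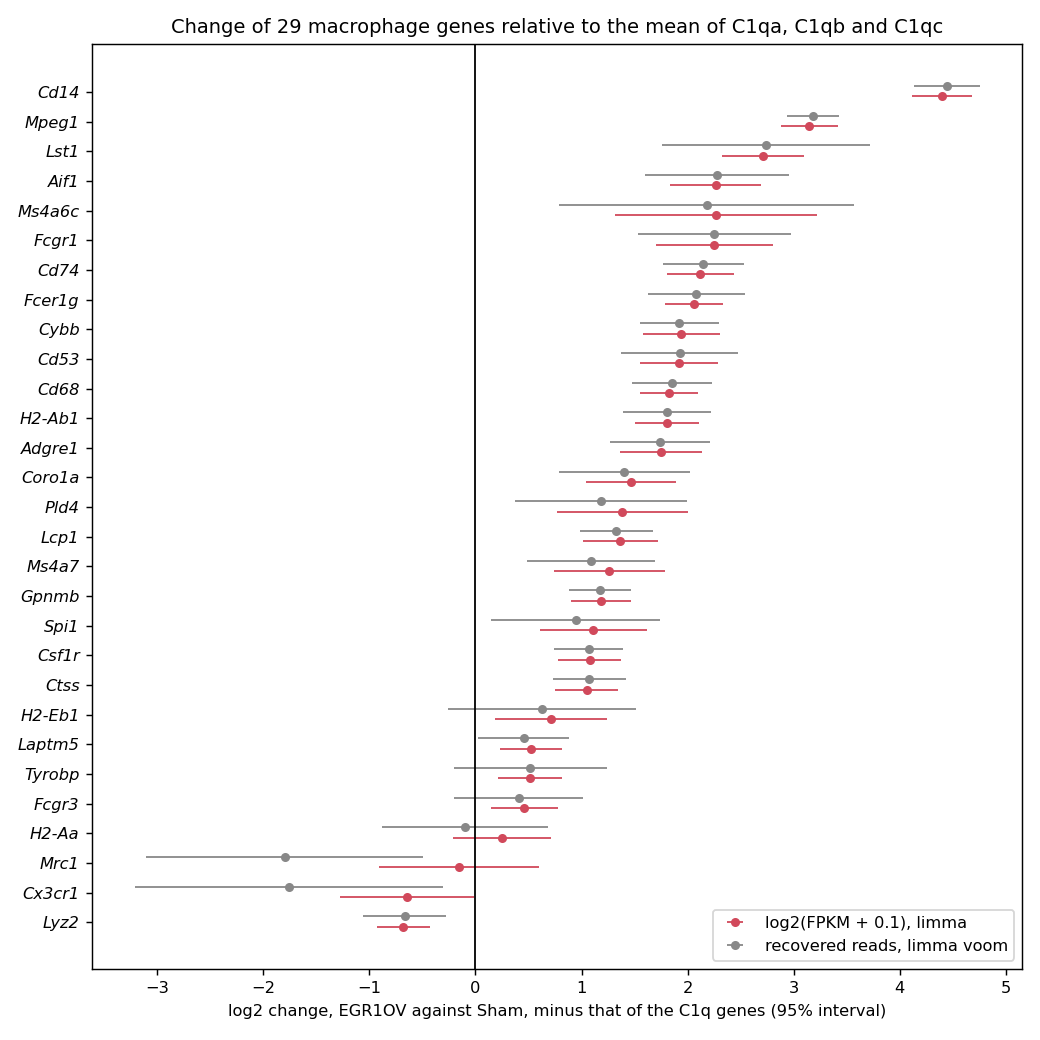
Log2 change of 29 macrophage genes in EGR1OV against Sham minus that of the C1q genes, with 95% intervals, from log2(FPKM + 0.1) in red and from recovered reads in grey. Lyz2 lies left of 0 in both, H2-Aa spans 0 in both, Mrc1 and Cx3cr1 shift left with reads, and Cd14 is farthest right at 4.40.

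The position of the lowest genes depended on the scale. Cx3cr1 was below C1q by 0.64 with an adjusted p of 0.0469, and the p was above 0.05 when Sham replicate 1 or 3, EGR1OV replicate 1 or 3, or any H/R library was left out, up to 0.203. It was also above 0.05 with the replicate number as a block (0.0542) and with only the groups compared (0.146). On recovered reads (limma voom), which do without the added 0.1 FPKM, Cx3cr1 was below C1q by 1.76 (interval -3.21 to -0.30) and Mrc1 by 1.80 (interval -3.10 to -0.49, adjusted p 0.0120). Just above C1q lay Fcgr3 (difference 0.46), Tyrobp (0.51), Laptm5 (0.52) and H2-Eb1 (0.71). Of these, Fcgr3, Tyrobp and H2-Eb1 no longer passed the test on reads, with adjusted p 0.168, 0.144 and 0.146. Fcgr3 did not pass it without Sham replicate 1 either (adjusted p 0.0604), nor did H2-Eb1 without Sham replicate 2 (0.0523) or EGR1OV replicate 2 (0.0683). Csf1r (difference 1.08, interval 0.78 to 1.37), Adgre1 (1.75, interval 1.37 to 2.14) and Spi1 (1.11, interval 0.60 to 1.62) lay above C1q on both scales. Cd74, Fcer1g, Cybb, Cd53, Cd68 and H2-Ab1 lay above it by 1.80 to 2.12. Over the 29 genes the difference from C1q thus ran from -0.68 to 4.40.

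H/R was set against Sham to see how these transcripts responded to hypoxia and reoxygenation. The changes were small. Of 32 genes, 2 were called lower (1.2-fold and adjusted p under 0.05) and 0 higher, against 2.65% of all genes lower and 1.6% higher. The median log2 change was -0.11, and that of all genes -0.03. Adgre1 changed by -0.36 (SE 0.092, adjusted p 0.0359) and stood at 69.6% of Sham, and Lyz2 changed by -0.29 (SE 0.061, adjusted p 0.0191) and stood at 81.7%. Both had H/R values below all Sham values. Neither call was firm. Adgre1 was not called without Sham replicate 1, 2 or 3 or H/R replicate 1 or 3 (adjusted p 0.0711 to 0.108), and Lyz2 was not called without Sham replicate 2 or 3 or H/R replicate 2 (0.0603 to 0.0636). With median-ratio scaling neither was called.

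C1qa had an adjusted p of 0.0168 but its change of -0.23 was below 1.2-fold. The sum of the 3 C1q genes was 56.6 ± 4.02 FPKM in H/R, 85.9% of Sham (SD, n = 3). In the other direction, H2-Ab1 was at 4.01, 5.12 and 4.14 FPKM in Sham and 5.32, 5.91 and 5.61 in H/R, with a change of +0.29 (adjusted p 0.0503). It was called higher under both other scalings, with the replicate number as a block (adjusted p 0.0340), on recovered reads and without Sham replicate 2. The other MHC class II genes were at 98.7% to 99.5% of Sham. Of the 32 genes, 10 had H/R values fully below Sham, where 21.8% of all genes did, and 1 fully above, where 11.8% did.

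**Figure D4:**
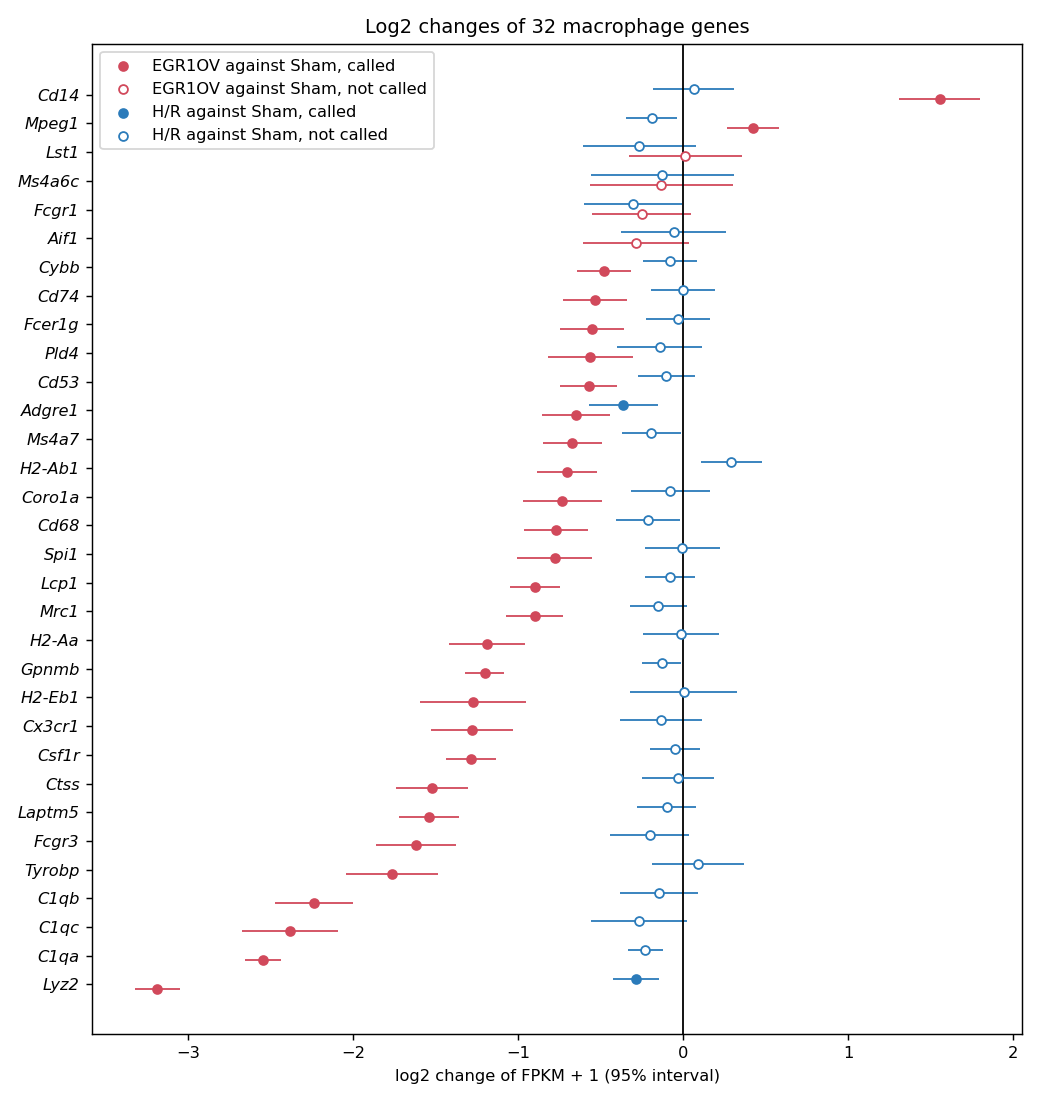
Log2 changes of FPKM + 1 with 95% intervals for 32 macrophage genes, in EGR1OV (red) and H/R (blue) against Sham, with filled points for called genes. The red points run from -3.19 (Lyz2) to 1.55 (Cd14), and the blue points from -0.36 (Adgre1) to 0.29 (H2-Ab1).

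EGR1OV was also compared with H/R directly. Here 25 genes were called lower and Cd14 and Mpeg1 higher, where 6.94% and 11.9% of all genes were called. The EGR1OV values lay fully below those of H/R for 26 of the 32 genes and fully above for 2, against 22% and 36.6% of all genes. Lyz2 (-2.90), C1qa (-2.32), C1qc (-2.11), C1qb (-2.09) and Tyrobp (-1.85) had the largest falls on the log2(FPKM + 1) scale, which understates those of low genes such as Cx3cr1 and Mrc1. Adgre1, which was called lower after H/R, differed by -0.28 (adjusted p 0.0275), below the 1.3-fold threshold, and was called with a pseudocount of 0.1 and on recovered reads. Pld4 lost its call without H/R replicate 2 or EGR1OV replicate 3, and Cybb without H/R replicate 1 or EGR1OV replicate 3.

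Other genes of macrophages and their pathways were read from lists. Of 55 other macrophage genes, 31 were tested, 15 were called lower and 3 higher in EGR1OV against Sham, with a median log2 change of -0.34. The shares of all genes called were 6.51% lower and 9.87% higher. On the log2(FPKM + 1) scale, which understates the falls of low genes, the largest were those of Clec7a (7.37 ± 0.715 to 1.64 ± 0.579 FPKM, SD, n = 3), a receptor for fungal glucans, Msr1 (log2 change -0.96), a scavenger receptor, and Csf2rb (-0.82), a chain of the receptor for Csf2. The rises were Tlr2 (12.7 ± 0.355 to 37.4 ± 0.637 FPKM), a receptor for bacterial lipoproteins, Marco (+0.74), another scavenger receptor, and Axl (+0.41), a receptor for dying cells. Axl was at 165 FPKM in Sham, above Lyz2 at 57.7 FPKM, and which cells of the culture made it was not measured. After H/R, Marco was at 0.610, 0.961 and 1.05 FPKM, below its Sham values of 1.77, 2.86 and 1.76, and was called lower (-0.73, adjusted p 0.0185).

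The ligands of Csf1r did not fall. Csf1 averaged 103 ± 0.560 FPKM across Sham, 124 ± 3.15 after H/R and 266 ± 2.01 with the plasmid (SD, n = 3). It was called higher in both comparisons with Sham, by 1.36 and 0.27. Il34 was at 10.8 ± 0.287, 13.5 ± 0.644 and 11.1 ± 1.55 FPKM and was called higher after H/R (adjusted p 0.0425), while in EGR1OV the adjusted p was 0.768. Csf2, a growth factor of myeloid cells, rose from 0.343 to 2.51 FPKM in EGR1OV. Of the 5 genes of this list other than Csf1r, 2 were called higher and 1 lower in EGR1OV against Sham. The shares of all genes were 9.87% and 6.51%.

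Of 7 tested transcription factors of macrophages other than Spi1, 2 were called higher in EGR1OV against Sham, Cebpb (+1.92) and Irf5 (+1.37), and 1 was called lower. Of all genes tested, 9.87% were called higher and 6.51% lower. Irf8, which pairs with PU.1, did not pass the filter, at 0.613 ± 0.0998 FPKM in Sham and 0.151 ± 0.0246 in EGR1OV (SD, n = 3), without overlap. Of 7 tested genes that serve MHC class II, only Rfx5 was called higher (+0.38), close to the threshold, and 0 were called lower. With so few genes these counts are near the shares of all genes. Ciita, the factor that switches on class II genes, did not pass the filter and was at 0.182 ± 0.0387 FPKM in Sham and 0.0423 ± 0.0408 in EGR1OV.

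The list of macrophage activation genes held 17, of which 15 were in the table and 10 were tested. In EGR1OV against Sham 9 were called higher and 0 lower, with a median of +1.82, where 9.87% of all genes were called higher. The filter took the mean over all 9 libraries, so a gene near 0 in Sham, such as Nos2, could pass on its EGR1OV values alone. This count therefore favours rises and is description only. Nos2, the inducible nitric oxide synthase, was at 0, 0.0130 and 0 FPKM in Sham and 14.9, 14.6 and 13.4 in EGR1OV. Il1b, an inflammatory cytokine, rose from 0.390 ± 0.244 to 8.48 ± 1.23 FPKM, and Acod1, which makes itaconate, from 0.379 ± 0.0251 to 8.01 ± 0.273 FPKM (SD, n = 3). Which cells of the culture made these transcripts was not measured. Of 16 lysosome genes that all cells use, 4 were called higher and 0 lower, led by Gla (+1.26), an enzyme that digests glycolipids, Npc2 (+1.17), a cholesterol carrier, and Lamp2 (+0.57), a membrane protein. Their median was +0.19, whereas that of the 8 lysosome and killing genes above was -0.99.

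**Figure D5:**
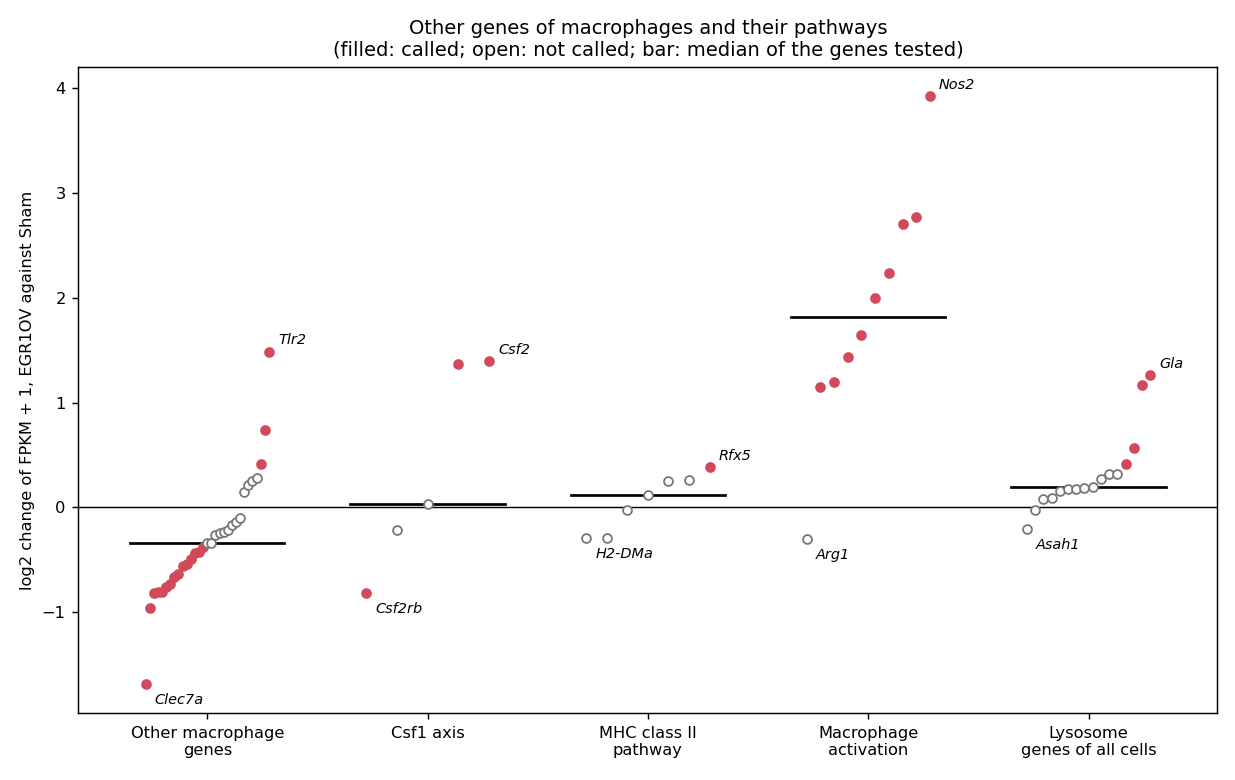
Log2 change of FPKM + 1 in EGR1OV against Sham for the tested genes of 5 lists, members excluded, with filled points for called genes and a bar for the median. Macrophage activation genes lie highest, up to 3.93 (Nos2), and other macrophage genes reach lowest, at -1.69 (Clec7a).

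The summed markers of other cells are given beside these results, with no test. Neutrophil markers (7 of 9 in the table, Ngp at 0 throughout) summed to 0.104 to 0.241 FPKM across Sham, 0.154 to 0.178 after H/R and 0.367 to 0.481 with the plasmid. T cell markers (5 of 8) summed to 2.19 to 3.22, 1.81 to 2.49 and 1.38 to 2.40 FPKM, most of it Trac, and Cd8a and Cd2 were at or near 0. NK cell markers (4 of 5) were at most 0.240 FPKM in sum. B cell markers (5 of 5) summed to at most 0.122 FPKM in Sham and H/R and to 0.829 to 0.909 in EGR1OV, of which Pax5 made up 0.792 FPKM while Cd79b was at 0. Mast cell markers (3 of 5, Cpa3 at 0) summed to 0.322 to 0.544 FPKM over all libraries. Pax5 and Trac are named after their values were seen.

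Dendritic cell markers (6 of 7, Siglech at 0) summed to 3.76 to 4.08 FPKM across Sham, 3.43 to 3.82 after H/R and 1.16 to 1.31 with the plasmid. Most of the difference lay in Itgax, which macrophages also use, at 2.63 ± 0.143 FPKM in Sham and 0.347 ± 0.0667 in EGR1OV (SD, n = 3). Flt3, Xcr1 and Clec9a were at or near 0. Tubule markers (12 of 13) summed to 1894 to 1933 FPKM across Sham, 1750 to 1829 after H/R and 1232 to 1336 with the plasmid (67.1% of Sham). Most of the Sham sum was Krt8. Among the 9 tubule markers tested, 4 were called lower and 1 higher in EGR1OV against Sham, with a median log2 change of -0.30. The shares of all genes were 6.51% and 9.87%. Pax8, at 13.5 ± 0.149 FPKM in EGR1OV, was near its Sham level and does not stand for the others. Endothelial markers (8 of 8) summed to 11.7 to 12.7, 12.4 to 13.1 and 8.84 to 9.22 FPKM, and fibroblast markers (7 of 7) to 32.8 to 34.5, 39.3 to 40.6 and 37.9 to 42.9 FPKM. The interferon gene Ifnb1 was at 0 in all Sham and H/R libraries and at 3.05, 3.02 and 1.90 FPKM in EGR1OV. The part of these markers and of Ifnb1 in the results above was not tested.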

How the data were processed

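FPKM values were made by the authors and deposited with 1 column for each of 9 libraries, sequenced on an Illumina NovaSeq. Per the submitters' processing notes the tools were Bowtie2 2.2.3, HISAT2 2.1.0 and TopHat2, with mm9, but 94.6% of gene positions equal GENCODE M21 (GRCm38), so positions are those of GRCm38. The counter and its strand setting are not given in the sources used here. In 26 rows a symbol turned into a date was restored from the gene identifier.

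Values were tested as log2(FPKM + 1) with limma 3.58.1 in R 4.3.3 (two-sided, lmFit then eBayes with a trend, 1 fit of all 9 libraries). A mean of 0.5 FPKM or more over the 9 libraries was required (13985 genes), and Benjamini-Hochberg adjustment covered all of them. A gene low in Sham could thus pass on its EGR1OV values alone. The fold thresholds were 1.3 for both EGR1OV comparisons and 1.2 for H/R against Sham, with adjusted p under 0.05. The comparison with C1q used log2(FPKM + 0.1) minus the mean of C1qa, C1qb and C1qc in that library. Low FPKM values were multiples of what 1 read is worth. With M21 exon lengths, 94.0% of 162885 values of 1 to 1000 reads came out whole within 0.02 reads, which gave each library's depth. Read numbers of genes whose length differs between annotations are approximate.

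Per-library values are given for the defining markers, genes called higher or called after H/R, and the 5 largest falls. From each other list at most 3 rises and 3 falls are named, plus Csf1, Il34, Irf8 and Ciita. The 36 genes, their roles, the lists and the C1q reference were chosen with earlier results of these data known. Alternatives were a pseudocount of 0.1 (or 1 for the comparison with C1q), other filters, scalings and thresholds, no trend, only the groups compared, another reference, the replicate block, voom on recovered reads, and each library left out. Some genes of the other lists are not reported here. Voom for the comparison with C1q was added after the data were seen. The code was tested on simulated data. Python 3.11.15 (numpy 2.4.6, pandas 2.3.3, matplotlib 3.10.9) was used for tables and figures.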

Additional observations from a re-analysis of the deposited data

How the results depend on the processing

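In EGR1OV against Sham all 32 genes kept their call and direction when any library was left out, with 26 genes lower and 2 higher each time. The 25 falls against H/R ranged from 23 to 25, and the 27 differences from C1q from 25 to 26. After H/R, leaving out libraries gave 0 to 2 genes lower and 0 to 1 higher, so these calls depended on single libraries. At a 2-fold threshold, 13 genes were lower and 1 higher in EGR1OV against Sham, 13 and 1 against H/R, and 0 lower after H/R. With a mean of at least 5 FPKM only 11 genes were tested, and 9, 9 and 1 were called lower in EGR1OV against Sham, EGR1OV against H/R and H/R against Sham. Quantile normalization left 1 gene higher in EGR1OV against Sham. After H/R, 1 gene was lower with a pseudocount of 0.1 and with quantile normalization, and 0 with no filter or median-ratio scaling. In the other direction, 3 genes were lower with voom on recovered reads or with no fold threshold, against 2 in the main fit. After H/R, 1 gene was higher with either scaling or with voom on recovered reads.

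No pairing by replicate number was seen: 9 same-number pairs of libraries correlated at -0.021 to 0.062. This does not show whether libraries of the same number were prepared together. With the replicate block 26 genes were lower and 2 higher in EGR1OV against Sham, and 1 lower and 1 higher after H/R.

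With Csf1r, Adgre1 and Tyrobp as the reference in place of C1q, 20 genes differed, and by construction genes between the references changed side. This count left out the C1q genes and kept Csf1r, Adgre1 and Tyrobp, each set against a mean that contains it. It therefore cannot be compared with the count for the C1q reference, and the differences of Csf1r, Adgre1 and Tyrobp are partly fixed in advance. The differences were then -0.60 for Tyrobp, -0.40 for H2-Eb1, -0.0669 for Ctss, -0.0029 for Spi1, -0.65 for Fcgr3, -0.87 for H2-Aa, -0.59 for Laptm5 and -0.0370 for Csf1r. Among them H2-Eb1, Ctss, Spi1 and Csf1r did not pass the limma test (adjusted p 0.136, 0.554, 0.990 and 0.764). With a pseudocount of 1 the difference from C1q was 1.49 for Mrc1 and 1.11 for Cx3cr1, since 1 FPKM exceeds most of their values. Genes under about 10 reads in EGR1OV (Cx3cr1, Trem2, Mrc1, Ly86) are limited by counting.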
